A study of Homo sapiens with 36 samples.

Results

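Heat shock proteins of the cytosol and the mitochondria are the cell's general folding machinery, and their messages were followed here in ribosome footprints and RNA from 2 human cell models of transformation. The set was fixed by gene symbol and held 10 genes of the 19125 symbols in the count tables: HSPA8, HSPA1A, HSPA1B, DNAJB1, HSPH1, HSP90AA1, HSP90AB1, HSPB1, HSPD1 and HSPE1. The rule that names them uses no measured value, but the set was chosen with earlier results of these data known. For each symbol the transcript with the highest mean count on a primary chromosome was used. Counts were present for 8 of the 10, and HSPA1A and HSPA1B stood at 0 in all 36 libraries.

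The first model was MCF10A-ER-Src, a non-tumorigenic breast epithelial line with a Src kinase joined to the hormone-binding domain of the oestrogen receptor. Its cells received 4-hydroxytamoxifen at 1 µM for 1, 4 or 24 h, which switches the kinase on, and were set against ethanol at the same times and cells at 0 h. The second was BJ, a skin fibroblast line, as its derivatives ELR, EL and EH. The names are not explained by the labels. As background, stepwise BJ models add telomerase first, the SV40 early region next and an oncogenic HRAS last. The ER-Src set held 21 libraries and the BJ set 15. Footprints came from cells given cycloheximide, which stops elongating ribosomes where they stand, or harringtonine, which traps initiating ribosomes and lets elongating ones finish. RNA was total RNA depleted of ribosomal RNA. Each tamoxifen time had 2 cycloheximide libraries and each uninduced condition had 1, so the 4 uninduced libraries (0 h and 3 ethanol times) were taken as 1 group. All 3 ethanol footprint libraries carry replicate number 2 and the 0 h library number 1. Each BJ line had 2 cycloheximide, 2 harringtonine and 1 RNA library. Nothing states that replicates came from separate cultures, so p-values measure the spread between these libraries, which may be technical.

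Library totals were 1334764 to 3627719 counts in ER-Src cycloheximide footprints, 1177909 to 2606112 in the BJ ones, 2070803 to 3008642 in RNA and 129172 to 374305 under harringtonine. Levels are given as CPM, the count per library scaled to a common total after TMM scaling within the libraries compared, so the scale shifts slightly between comparisons. The markers of the labelled cell types were checked in footprints. Summed over 8 fibroblast genes, unscaled footprint levels were 9.37 to 31.7 CPM in ER-Src cells and 409 to 438 CPM in ELR, 3616 to 3619 CPM in EL and 23604.5 to 24166 CPM in EH. Summed over 8 breast epithelial genes they were 9359 to 16753 CPM in ER-Src cells and 993 to 1023 CPM in ELR, 874 to 915 CPM in EL and 1206 to 1218 CPM in EH, with KRT5 and CDH1 at 0 in all BJ footprints. In ELR the fibroblast sum thus lay below the breast epithelial one. TERT had 206 to 243 CPM in ELR footprints, 173 to 179.6 CPM in EL and 351 to 369.8 CPM in EH, while HRAS had 142 to 154 CPM in ELR, 33.8 to 34.9 CPM in EL and 26.7 to 30.2 CPM in EH. Because the samples are bulk, fewer cells of a type and less RNA per cell cannot be told apart.

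As background, HSP70 proteins bind exposed hydrophobic stretches of unfolded chains and release them on exchanging ADP for ATP. J-domain proteins such as DNAJB1 bring the client and start ATP hydrolysis, and HSP110 proteins such as HSPH1 act as nucleotide exchange factors. HSP90 takes over late folding steps of kinases and steroid receptors, and the viral form of Src is a classic HSP90 client. In the mitochondrial matrix the HSPD1 ring (HSP60) folds imported chains under its HSPE1 lid (HSP10), and HSPB1 (HSP27) is a small heat shock protein that holds unfolded chains without ATP. Heat shock factor HSF1 activates many of these genes through heat shock elements, which are inverted repeats of the unit GAA.

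Promoter windows of 250 bases before to 50 after each annotated start (RefSeq, GRCh38.p14) were searched on both strands for 3 such units, spelled GAANNTTCNNGAA or TTCNNGAANNTTC. All 10 genes matched the RefSeq table, with 16 windows. The element stood in a window of HSPA8, HSP90AA1, HSP90AB1 and HSPD1, against 0.49% of the 35116 windows of all genes. That share counts windows, while a gene can have several. The windows of HSPA1A, HSPA1B, HSPB1, DNAJB1, HSPE1 and HSPH1 did not hold these letters. Shorter matches of 2 units stood in windows of HSPA1A, HSPA1B, HSPB1 and DNAJB1 but not of HSPE1 or HSPH1, where 13.5% of all windows held one. The HSPE1 window began at 197500129, close to the HSPD1 stretch below, which ends at 197500090. The stretches below are shown because the genes that carry them are followed through every comparison, and the capitals mark the matched elements.
HSPA8, chr11:123062170-123062199, minus strand: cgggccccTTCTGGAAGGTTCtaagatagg
HSP90AA1, chr14:102087111-102087140, minus strand: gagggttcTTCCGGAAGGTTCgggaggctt
HSP90AB1, chr6:44247770-44247799, plus strand: ggagcaggTTCTGGAAGATTCatgggctcc
HSP90AB1, chr6:44247823-44247852, plus strand: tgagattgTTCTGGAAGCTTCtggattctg
HSPD1, chr2:197500061-197500090, minus strand: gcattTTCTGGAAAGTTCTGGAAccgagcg
The first element base lay 55 bases before the start in HSPA8 and 88 in HSP90AA1. In HSP90AB1 the 2 elements began 165 and 112 bases before the start, and in HSPD1 2 overlapping elements began 245 and 240 bases before it. HSPA8 held a further element 230 bases before its start. These matches describe letters in a window, and no binding was measured here.

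HSPA1A and HSPA1B are the stress-inducible HSP70 genes, and neither had a count on chromosome 6 in any library. They lie at 31783320 to 31785723 and 31795515 to 31798031 on the plus strand of chromosome 6 (GRCh37) and have 1 exon each. Their coding regions differ at 4 of 1923 bases, an identity of 99.79%, and the encoded proteins of 641 residues do not differ. Of the 1894 windows of 30 bases in HSPA1A, about the length of a footprint, 1815 also occur in HSPA1B. The 30 bases at coding positions 1891 to 1920 are shown as one of the few places where the copies can be told apart, with the 2 differing bases in capitals.
HSPA1A: tctgggtcaggcccCaccattgaggaggtA
HSPA1B: tctgggtcaggcccTaccattgaggaggtG
Copies of these genes on alternative haplotypes of chromosome 6 had rows of their own, which the rule left out. Those rows held 31 counts for HSPA1A over all libraries, at most 8 in one library, and 0 for HSPA1B. The handling of reads that match several places is not stated here in any label, and its part in the zeros was not tested. The kept rows of HSPA1A and HSPA1B therefore entered no comparison below.

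Repeated sequence also touched members that were counted. The share of 30-base coding windows that occur elsewhere in GRCh37 was 86.64% in HSPE1, 69.17% in HSPD1, 59.62% in HSP90AA1, 54.06% in HSPA8 and 51.24% in HSP90AB1. It was 29.86% in HSPB1, 18.67% in DNAJB1 and 0% in HSPH1. In HSPE1, 240 of 277 windows were repeated, so part of its reads cannot be assigned to it by sequence alone. The whole-gene span of HSPD1 (chromosome 2, 198351308 to 198381461, minus strand, 12 exons) covers HSPE1 (198364864 to 198368173, plus strand, 4 exons). Counts are per RefSeq transcript, however, and the RefSeq starts of the pair point away from each other. Their promoter windows (GRCh38.p14) were 197499791 to 197500090 and 197500225 to 197500524 for HSPD1 and 197500129 to 197500428 for HSPE1. Overlap of the counted transcripts was not examined, and no label states whether counting used strand.

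**Figure D1:**
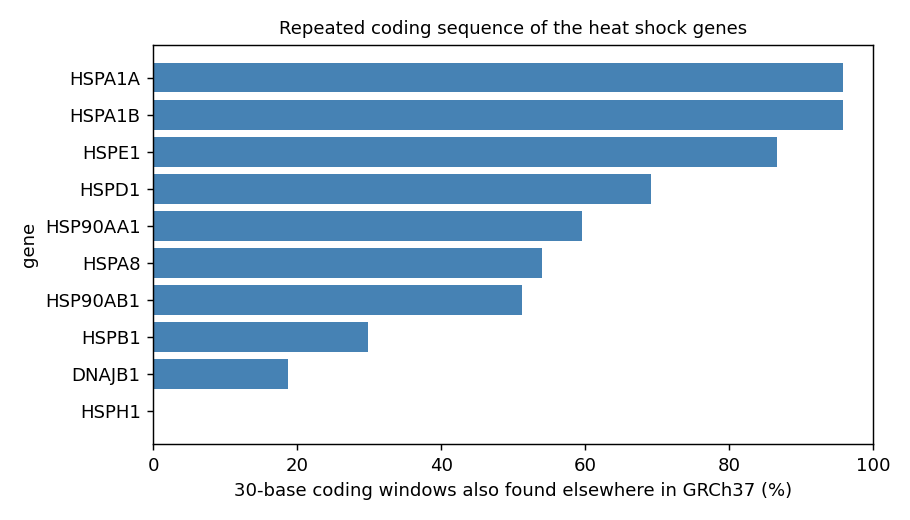
Bars give, for each gene, the percentage of 30-base windows of its coding sequence that occur at another place in GRCh37, on an axis from 0 to 100%. HSPA1A and HSPA1B stand at 95.83% and HSPH1 at 0%.

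The other counted genes lie on GRCh37 as follows. HSPA8, the constitutive HSP70, is on chromosome 11 at 122928197 to 122933938 with 9 exons, and HSPH1 on chromosome 13 at 31709110 to 31736525 with 18 exons. HSP90AA1, the inducible HSP90, is on chromosome 14 at 102547079 to 102606036 with 11 exons, and HSP90AB1, the constitutive one, on chromosome 6 at 44213903 to 44221625 with 12 exons. DNAJB1 is on chromosome 19 at 14625581 to 14671203 with 3 exons, and HSPB1 on chromosome 7 at 75931990 to 75933612 with 3 exons.

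Per kilobase of coding length, HSPE1 led the footprints of uninduced ER-Src cells and HSPA8 those of EH fibroblasts. In uninduced ER-Src footprints HSPE1 had 2810 ± 513 CPM per kb, HSPA8 1976 ± 304, HSP90AA1 1695 ± 286 and HSP90AB1 1452 ± 101 CPM per kb (SD, n = 4). These neighbours overlapped within their spread, while HSPB1 at 921 ± 124, HSPD1 at 579.8 ± 41.6, DNAJB1 at 159 ± 41.1 and HSPH1 at 146 ± 30.5 CPM per kb came lower, the last pair overlapping. In ELR footprints HSP90AA1 and HSPA8 were level, at 2197 ± 74.9 and 2196 ± 40.3 CPM per kb (SD, n = 2), and HSPE1 followed at 1652 ± 17.6 CPM per kb. In EH footprints HSPA8 had 1405 ± 88.7 CPM per kb, HSP90AA1 1049 ± 54.7, HSPB1 1038 ± 52.3, HSP90AB1 921 ± 7.06 and HSPE1 628 ± 104 CPM per kb (SD, n = 2). In RNA the order began with HSPA8, HSP90AA1 and HSP90AB1 in uninduced ER-Src cells and EH. HSPB1 and DNAJB1 were the lowest of the 8 in uninduced ER-Src cells, at 46.1 ± 9.27 and 99.1 ± 31.0 CPM per kb (SD, n = 4). RNA was divided by coding length too, although counts are per transcript, so its order may depend on length outside the coding region.

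The BJ lines gave the clearest differences. Of the 8 counted genes, 7 had more footprints in ELR than in EH and 1, HSPB1, had fewer. All 8 passed the test (edgeR quasi-likelihood with Benjamini-Hochberg adjustment over all genes, adjusted p under 0.05), where 53.4% of the 9994 genes tested did. In the direction of higher in ELR, 7 of 8 members were called, against 25.5% of all genes, and lower in ELR 1 of 8, against 27.9%. The median difference of the members was 0.84 on the log2 scale and that of all genes −0.01. Replicates of the BJ lines were close, with a biological coefficient of variation of 1.80%, so small differences passed. Overlap between lines is described below per member, and the share of all genes without overlap was not counted.

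The mitochondrial pair rose at both steps. HSPE1 had 488 and 487 CPM in ELR footprints, 349 and 324 CPM in EL and 216 and 173 CPM in EH. No library of one line overlapped another line, and HSPE1 rose 2.49-fold in ELR over EH (log2 difference 1.31 ± 0.07 SE, edgeR adjusted p = 2.24e-26). HSPD1, its ring partner, had 937 and 913 CPM in ELR, 662 and 638 CPM in EL and 455 and 445 CPM in EH. It rose 2.06-fold in ELR over EH, and both steps, EL over EH (0.53 ± 0.05, edgeR adjusted p = 5.58e-14) and ELR over EL (0.51 ± 0.04, edgeR adjusted p = 2.76e-18), passed.

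Both HSP90 genes rose as well, 2.00-fold for HSP90AA1 and 1.61-fold for HSP90AB1 in ELR over EH. HSP90AA1 had 4697 and 4534 CPM in ELR footprints, 3056 and 2896 CPM in EL and 2379 and 2240.0 CPM in EH. The lines did not overlap, with log2 differences of 0.36 ± 0.03 in EL over EH and 0.63 ± 0.03 in ELR over EL. HSP90AB1 had 3292 and 3154 CPM in ELR, 2739 and 2740.1 CPM in EL and 1982 and 2030.5 CPM in EH. Its log2 difference was 0.45 ± 0.03 in EL over EH and 0.24 ± 0.03 in ELR over EL, and all 4 of these HSP90 differences passed (edgeR adjusted p from 4.36e-21 for HSP90AB1 in EL over EH to 1.87e-11 in ELR over EL, and lower for HSP90AA1 in ELR over EL at 2.9e-32).

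HSPA8 rose 1.49-fold in ELR over EH. It had 4101 and 4047 CPM in ELR footprints, 2777 and 2697 CPM in EL and 2834 and 2627 CPM in EH, so the EL and EH libraries overlapped. The log2 difference was 0.00 ± 0.03 in EL over EH, with an edgeR adjusted p of 0.980, and 0.57 ± 0.03 in ELR over EL, with an edgeR adjusted p of 1.07e-29. Its exchange factor HSPH1 had 346 and 333 CPM in ELR, 211 and 196 CPM in EL and 167 and 159 CPM in EH. HSPH1 rose at both steps, by 0.32 ± 0.09 in EL over EH and 0.74 ± 0.06 in ELR over EL. The J-domain partner DNAJB1 had the smallest difference of the 8 in ELR over EH, with 151 and 152 CPM in ELR, 133 and 126 CPM in EL and 118 and 102 CPM in EH. DNAJB1 rose 1.37-fold in ELR over EH (edgeR adjusted p = 0.000167), its EL over EH difference of 0.23 ± 0.11 had an edgeR adjusted p of 0.0733, and its ELR over EL call (0.22 ± 0.08, edgeR adjusted p = 0.0336) was lost without any 1 of the 4 libraries, with log2 differences of 0.19 to 0.25 and adjusted p of 0.0686 to 0.165.

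HSPB1 went the other way. It had 286 and 319 CPM in ELR footprints, 391 and 411 CPM in EL and 616 and 669.9 CPM in EH, with no overlap between lines. HSPB1 fell 2.14-fold in ELR against EH (log2 difference −1.09 ± 0.06, edgeR adjusted p = 7.69e-27) and passed at both steps. The summed fibroblast markers moved along the same lines, lowest in ELR and highest in EH, with 1 of the 8 genes at 0 in ELR. Their part in the differences of the heat shock genes was not tested.

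Over the whole set, 6 of 8 members passed in EL over EH, where 41.5% of genes did, 5 of them higher (19.1% of genes) and 1 lower (22.4%). In ELR over EL 8 of 8 passed, where 36.1% did, 7 of them higher (17.4%) and 1 lower (18.7%). When the spread was estimated jointly with the ER-Src libraries, 4 members passed in EL over EH, 6 in ELR over EL and 7 in ELR over EH. HSP90AA1 and HSPH1 were then lost in the first, HSP90AB1 and DNAJB1 in the second and DNAJB1 in the third. Over all genes the joint spread called 2607 in EL over EH (40.3% of them higher), 1778 in ELR over EL (39.5%) and 4191 in ELR over EH (42.0%). The main run called 4146 (45.9%), 3612 (48.2%) and 5337 (47.8%).

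**Figure D2:**
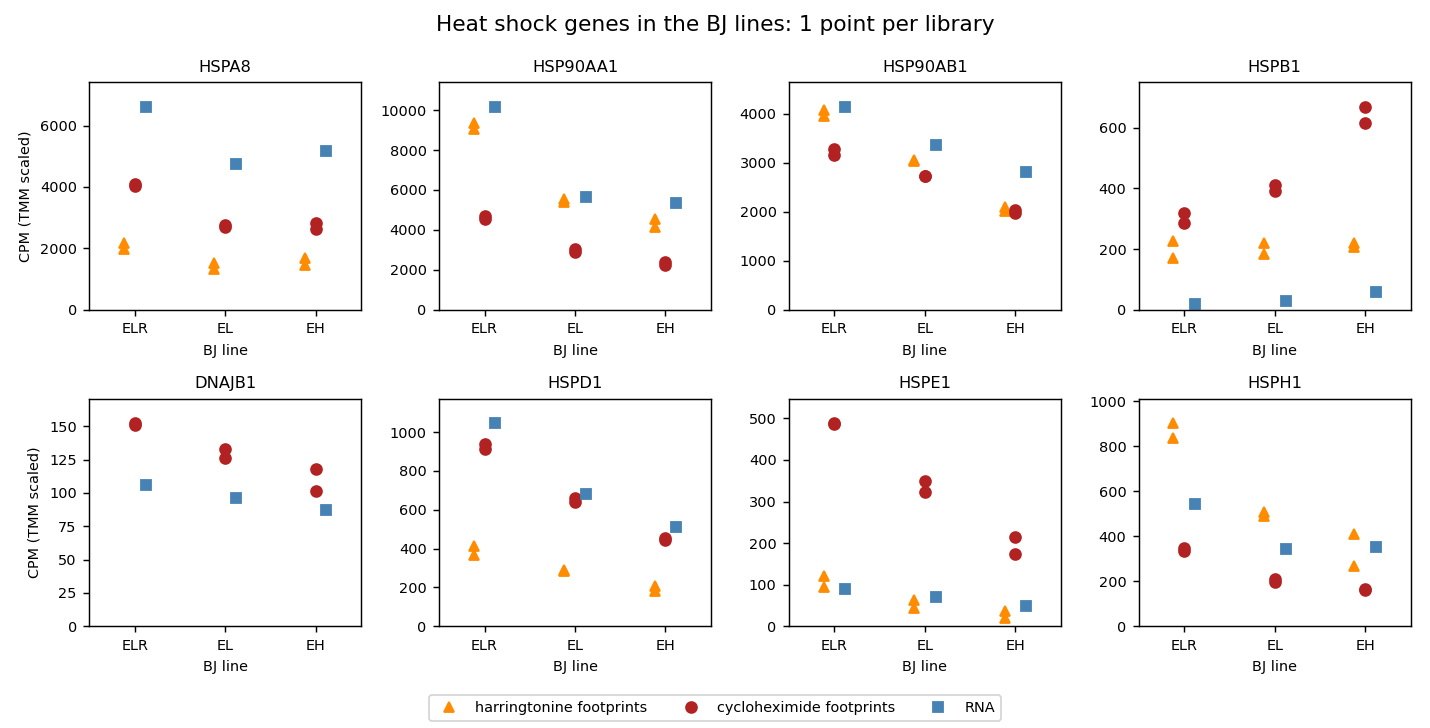
Each panel gives 1 gene, with CPM on the vertical axis starting at 0 and the BJ lines ELR, EL and EH along the horizontal axis. Triangles are harringtonine footprints (none for DNAJB1, whose counts were too low to be tested there), circles cycloheximide footprints and squares RNA, 1 point per library and each library type scaled on its own. HSPB1 cycloheximide footprints and RNA are highest in EH, while the other 7 genes are highest in ELR.

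RNA of the BJ lines had the same direction as footprints in ELR over EH for all 8 members, in single libraries that allow no test between lines. HSP90AA1 RNA stood at 10171 CPM in ELR, 5645 CPM in EL and 5338 CPM in EH, and HSPD1 RNA at 1046 CPM in ELR, 681 CPM in EL and 509 CPM in EH. HSPB1 RNA stood at 20.4 CPM in ELR, 29.99 CPM in EL and 57.2 CPM in EH. In ELR over EH, 4 of 8 members were at least 1.5-fold higher, where 17.4% of 9230 genes were, and 1 was at least 1.5-fold lower, where 21.3% were. The log2 ratios of the RNA ran from −1.44 for HSPB1 to 1.04 for HSPD1, with HSPA8 at 0.36, HSP90AB1 at 0.56, HSPH1 at 0.62, HSPE1 at 0.85 and HSP90AA1 at 0.93. In EL over EH the RNA ratio was −0.05 for HSPH1, −0.12 for HSPA8, 0.08 for HSP90AA1 and −0.91 for HSPB1. It was 0.15 for DNAJB1, 0.25 for HSP90AB1, 0.42 for HSPD1 and 0.52 for HSPE1. At that step 0 of 8 members were at least 1.5-fold higher, where 13.4% of genes were, and 1 was at least 1.5-fold lower, where 16.9% were.

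Whether footprints changed beyond RNA was tested as an interaction, called ribosome loading here. In ELR over EH no member passed, where 0.503% of 12138 genes did (0.346% higher and 0.157% lower; of the calls 68.9% were higher with TMM and 52.8% with DESeq2 size factors), with the single RNA libraries assumed to vary like the replicated groups of both models. At unadjusted p under 0.05 the member count was also 0, where 8% of all genes were, and with DESeq2 it was 0. The log2 loading differences ran from 0.08 ± 0.23 for HSPD1 to 0.54 ± 0.32 for HSPE1. When the spread came from the BJ libraries alone, 2 members passed, HSPA8 at 0.18 (adjusted p = 0.00336) and HSPH1 at 0.40 (adjusted p = 0.0112, both edgeR). In that run 833 genes were called in all, against 61 in the main run, and 43.0% of the 833 were higher. Each BJ line had 1 RNA library, so that spread came from footprint replicates only and the spread of RNA was not estimated.

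Harringtonine footprints, which have their own libraries, also separated ELR from EH. Of the 7 members tested 6 passed, where 30.8% of 3552 genes did, and all 6 were higher in ELR, where 13.3% were called higher and 17.4% lower. HSP90AA1 had 9336 and 9069 CPM in ELR and 4528 and 4138 CPM in EH, a log2 difference of 1.08 ± 0.06 (edgeR adjusted p = 2.49e-66). HSPH1 had 835 and 902 CPM in ELR and 412 and 269 CPM in EH (1.34 ± 0.18), and HSPE1 95.2 and 121 CPM in ELR and 35.8 and 19.9 CPM in EH (1.91 ± 0.56). HSPB1 did not pass here, with 169 and 227 CPM in ELR and 206 and 219 CPM in EH, and these overlapped. Counts were low under harringtonine: HSPE1 had as few as 2 in a library, its call was lost without EH replicate 2 (1.56, adjusted p = 0.0825) or ELR replicate 2 (1.72, adjusted p = 0.0743), and that of HSPA8 without EH replicate 1 (0.30, adjusted p = 0.0942, all edgeR). The DESeq2 Wald test called 3 members, HSP90AA1, HSP90AB1 and HSPH1, and lost HSPA8, HSPD1 and HSPE1. It called 492 genes in all, 29.3% of them higher in ELR, against 1093 and 43.4% in the main run.

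Partner machines of the members were described from lists chosen with earlier results known, beside 25.5% of all genes called higher and 27.9% called lower in ELR over EH. In ELR over EH footprints, all 8 subunits of TRiC, the ring that folds actin and tubulin, rose, among them CCT3 (0.82 ± 0.05), CCT2 (0.87 ± 0.05) and CCT6A (0.97 ± 0.05). All 5 prefoldin subunits tested, which hand chains to TRiC, rose, led by PFDN2 (1.13 ± 0.09). Of 13 HSP90 co-chaperones 10 rose and 0 fell, with FKBP4, an immunophilin of steroid receptor complexes, at 1.42 ± 0.09, NUDC at 0.91 ± 0.07 and STIP1, which bridges HSP70 and HSP90, at 0.53 ± 0.06. Of 17 HSP70 co-chaperones tested 9 rose, such as DNAJA1 (0.71 ± 0.06) and HSPA4 (0.49 ± 0.06), and 2 fell, with DNAJB4 at −2.05 ± 0.17. Among 10 mitochondrial chaperones and proteases 6 rose, with HSPA9, the matrix HSP70, at 0.66 ± 0.05, TRAP1, the matrix HSP90, at 1.10 ± 0.10 and CLPP at 0.77 ± 0.13. Of 2 other cytosolic HSP70 genes tested, HSPA14 rose (0.83 ± 0.17) and HSPA2 fell (−1.23 ± 0.23), and of 3 heat shock factors and regulators tested (HSF1, HSF2 and HSBP1) HSF2 rose (0.59 ± 0.21). The median log2 difference was 0.71 for TRiC, 0.62 for prefoldin, 0.53 for HSP90 co-chaperones, 0.65 for the mitochondrial list and 0.35 for HSP70 co-chaperones, against −0.01 for all genes.

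Counts of other small heat shock proteins are given as a description. CRYAB (alpha-B-crystallin) had 0 counts in ELR footprints, 6 in EL and 67 in EH, which makes it at least 38.1-fold lower in ELR than in EH against a floor of 3 counts over the ELR group. HSPB7 had 0, 2 and 30 counts in ELR, EL and EH, at least 17.1-fold lower in ELR than in EH on the same floor. HSPB6 had 14, 81 and 177 counts in ELR, EL and EH and was 21.6-fold lower in ELR than in EH (95% exact interval 12.5 to 40.3, counting error only). These are the 3 of 6 listed genes that passed the filter on low counts. CRYAB and HSPB7 passed through their EH counts, so their calls support nothing about the list or about HSPB1.

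In ER-Src cells tamoxifen gave 1 call among the members. At 24 h, 1 of 8 members passed in footprints, close to the 14.6% of 10189 genes that did (8.78% higher and 5.84% lower). At 4 h and 1 h none did, where 0.854% (0.834% higher) and 0.0196% of genes did. The median of the members was −0.40 at 1 h, −0.26 at 4 h and −0.26 at 24 h, against 0.00, 0.00 and −0.01 over all genes. At unadjusted p under 0.05 there were 6 members at 1 h, 1 at 4 h and 3 at 24 h, all with lower values in tamoxifen, where 4.14%, 2.7% and 13.7% of all genes were lower at that threshold. Leaving out 1 library moved the count of all genes called at 24 h to 701 (without tamoxifen replicate 2) or 761 (without replicate 1), against 1490. At 4 h it moved to 9 (without tamoxifen replicate 1), 53 (without ethanol 1 h) or 56 (without 0 h), against 87. Without the ethanol 24 h library the count of all genes at 24 h rose to 1954. With DESeq2 the counts of members past the adjusted threshold were likewise 0, 0 and 1. These 3 times share their uninduced libraries.

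The single call at 24 h, close to the share of all genes, was HSPD1. Its footprints stood at 731 and 731 CPM at 1 h of tamoxifen, 764 and 815 CPM at 4 h and 579.6 and 789 CPM at 24 h, against 883 CPM at 0 h and 976, 1003 and 984 CPM at 1, 4 and 24 h of ethanol. Every tamoxifen library lay below every uninduced one. At 24 h it fell 1.40-fold (log2 difference −0.49 ± 0.14, edgeR adjusted p = 0.0245), and the call was lost without tamoxifen 24 h replicate 1 (−0.29, adjusted p = 0.336), without ethanol 1 h (−0.48, adjusted p = 0.0520) and without ethanol 4 h (−0.46, adjusted p = 0.0678).

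HSPA8 and HSP90AB1 had the same arrangement without passing. HSPA8 footprints stood at 2371 and 2446 CPM at 1 h of tamoxifen, 2698 and 2801 CPM at 4 h and 2389 and 3126 CPM at 24 h, against 3490.2 CPM at 0 h and 3428, 4548 and 3322 CPM in ethanol at 1, 4 and 24 h. All 6 tamoxifen libraries lay below all 4 uninduced ones, and the log2 differences of −0.62 ± 0.16, −0.43 ± 0.15 and −0.42 ± 0.15 had edgeR adjusted p of 0.507, 0.443 and 0.0818. Without the ethanol 24 h library the 24 h difference passed, at −0.46 with an edgeR adjusted p of 0.0364. That run called 1954 genes in all, against 1490 in the main run. HSP90AB1 had 2398 to 2709 CPM over the 6 tamoxifen libraries and 2841 to 3245 CPM over the 4 uninduced ones, again without overlap, and its adjusted p by edgeR was 0.199 at the least, at 24 h. The share of all genes arranged this way was not counted, so the arrangement in HSPD1, HSPA8 and HSP90AB1 has no background to set it against.

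HSP90AA1 and HSPH1 lay below the uninduced libraries at 4 h but overlapped them at 1 h and 24 h. HSP90AA1 had 3085 and 2337, 3005 and 2730.1, and 2938 and 3227 CPM at 1, 4 and 24 h of tamoxifen, against 3255 CPM at 0 h and 3059, 3728 and 4303 CPM in ethanol. The highest ethanol value was that at 24 h. HSPH1 had 288 and 204, 275 and 279, and 228 and 368 CPM at 1, 4 and 24 h of tamoxifen, against 317 CPM at 0 h and 284, 437 and 407 CPM in ethanol. Neither passed at any time, with log2 differences at 4 h of −0.32 ± 0.16 for HSP90AA1 and −0.38 ± 0.21 for HSPH1. How many of all genes lay below the uninduced libraries at 4 h was not counted.

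DNAJB1, HSPB1 and HSPE1 kept to other patterns. DNAJB1 stood at 128 and 102 CPM at 1 h, 189.6 and 173 CPM at 4 h and 148 and 151 CPM at 24 h of tamoxifen, against 148 CPM at 0 h and 113, 211 and 154 CPM in ethanol at those times. Its highest level was at 4 h in ethanol and in tamoxifen alike, 1.86-fold over 1 h in ethanol and 1.70-fold in tamoxifen replicate 2, and in RNA 1.85-fold in ethanol and 1.41-fold in tamoxifen. HSPB1 had 466 and 408 CPM at 24 h of tamoxifen, below the 4 uninduced libraries at 470.3 to 650.4 CPM, with a log2 difference of −0.33 ± 0.15 and an edgeR adjusted p of 0.152. For this arrangement too, the share of all genes was not counted. HSPE1 overlapped the uninduced libraries at all 3 times, with 658 to 865 CPM under tamoxifen and 719.7 to 1032 CPM in uninduced cells.

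**Figure D3:**
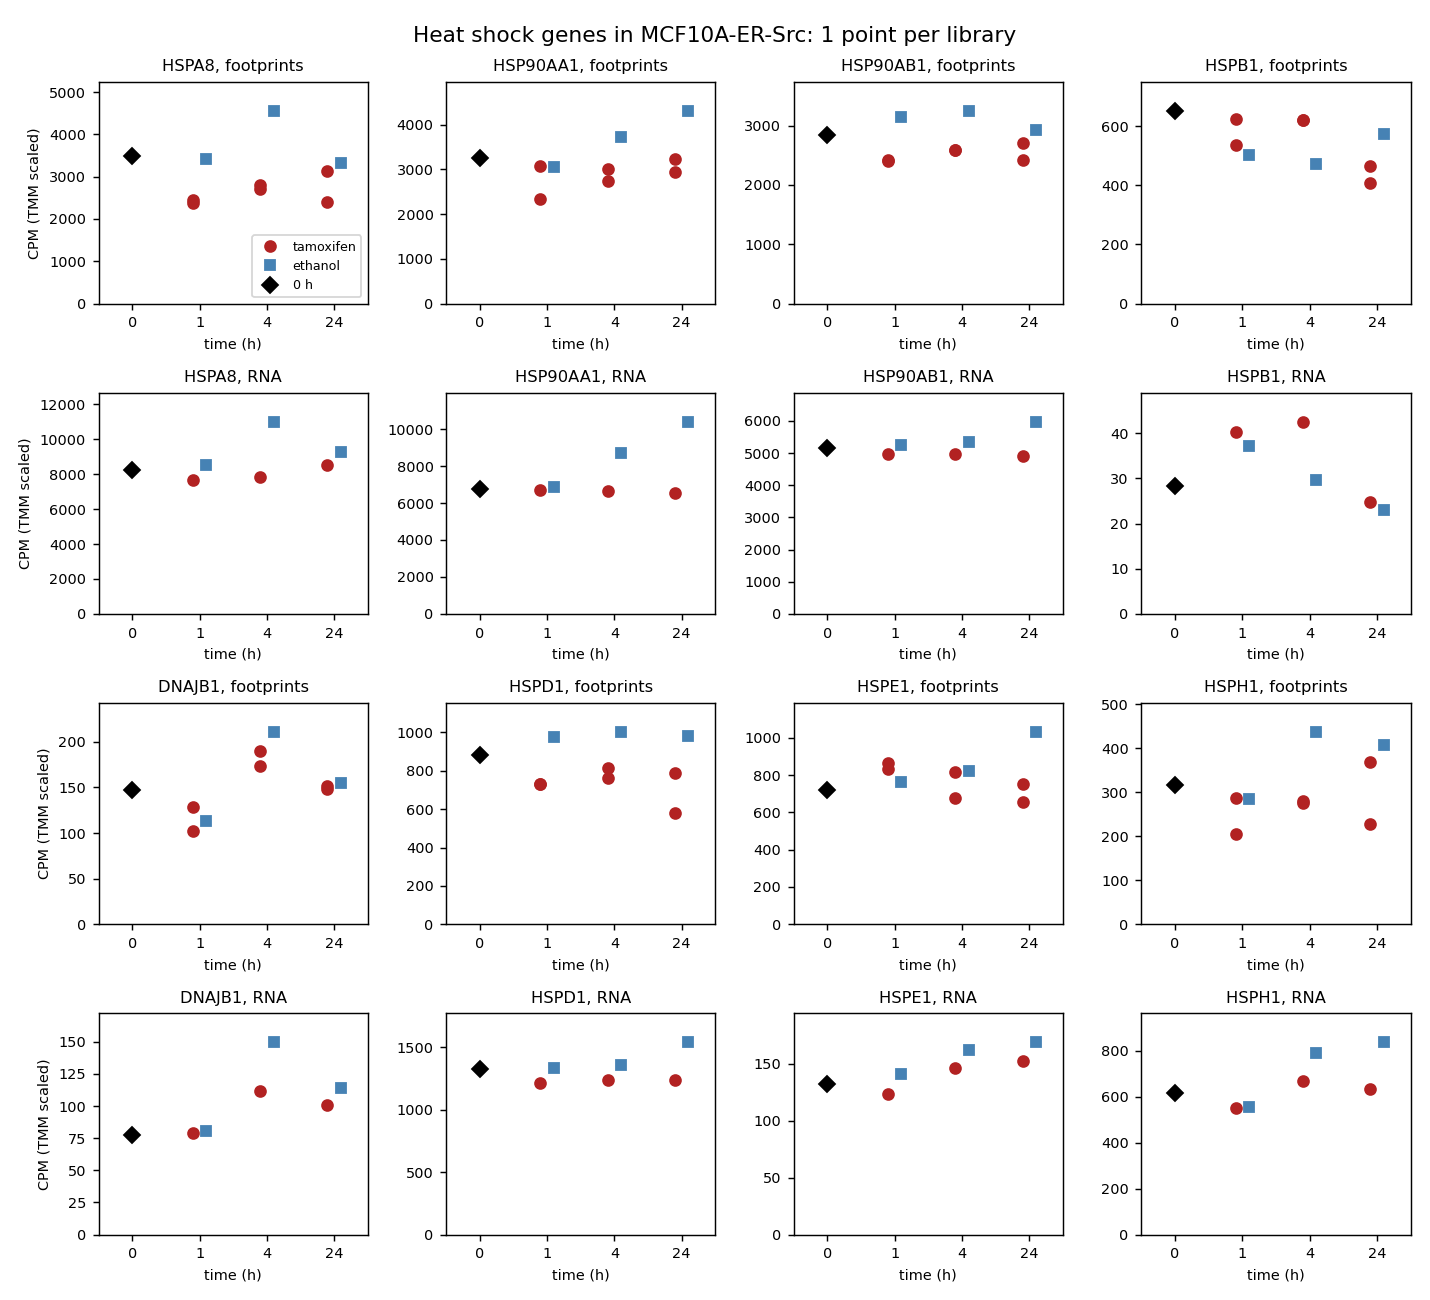
Each pair of panels gives 1 gene in cycloheximide footprints and, beneath, in RNA of ER-Src cells, with CPM from 0 on the vertical axis and time in h on the horizontal axis. Circles are tamoxifen, squares ethanol and diamonds 0 h, 1 point per library. In HSPD1, HSPA8 and HSP90AB1 footprints all tamoxifen points lie below all squares and diamonds, and the share of all genes arranged so was not counted.

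Levels in ethanol differed between hours for several members, so libraries were also set side by side at the same hour, with 1 library each and no test. In footprints of replicate 2, 6 of 8 members had lower CPM in tamoxifen than in ethanol at 1 h, 7 at 4 h and 8 at 24 h, with median log2 ratios of −0.38, −0.31 and −0.23. Of all 10189 genes 49.9%, 48.9% and 51.1% were lower in the same library pairs, with medians of 0.00, 0.01 and −0.01. HSPA8 had 2801 CPM in tamoxifen and 4548 CPM in ethanol at 4 h, a ratio of 0.616, and 0.941 at 24 h. HSPH1 had 279 CPM in tamoxifen and 437 CPM in ethanol at 4 h, a ratio of 0.639, and 0.905 at 24 h. The ratios of HSPA8 and HSPH1 were thus lower at 4 h than at 24 h, while HSP90AA1 stayed at 0.764, 0.732 and 0.750 at 1, 4 and 24 h. For HSPA8 the ethanol 4 h library stood apart, against 3428 and 3322 CPM in ethanol at 1 and 24 h. Its tamoxifen value was 2801 CPM at 4 h and 3126 CPM at 24 h. HSPB1 ran from 1.32 at 4 h to 0.712 at 24 h.

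RNA of ER-Src cells gave no call among the members at 1, 4 or 24 h, where 0.00941%, 0.169% and 6.46% of 10627 genes passed (at 24 h, 4.67% higher and 1.8% lower) with a single tamoxifen library per time. At unadjusted p under 0.05 the member count was 0 at each time, where 2.44%, 4.61% and 18.8% of all genes were, and DESeq2 called 0 as well. The count of all genes called at 24 h was 687 and became 1587 without ethanol 24 h, 362 without ethanol 1 h and 438 without ethanol 4 h, while at 4 h it was 18 and ran from 4 to 99. HSP90AA1 RNA had 6684, 6650.4 and 6544 CPM at 1, 4 and 24 h of tamoxifen, against 6781 CPM at 0 h and 6871, 8681 and 10407 CPM in ethanol. Every tamoxifen value was below every uninduced one, the widest gap being at 24 h with a ratio of 0.629. HSPD1 RNA lay likewise at 1217, 1236 and 1236 CPM in tamoxifen against 1325 CPM at 0 h and 1332, 1362 and 1541 CPM in ethanol. The share of all genes arranged so in RNA was not counted. HSPB1 RNA was low throughout, at 24.8 to 42.6 CPM in tamoxifen and 23.1 to 37.2 CPM in uninduced cells.

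Ribosome loading in ER-Src cells gave no call among the members at any time, where 0%, 0% and 0.618% of 12138 genes passed at 1, 4 and 24 h (at 24 h, 0.0165% higher and 0.601% lower). At unadjusted p under 0.05 the count of members was 0 at each time, where 4.56%, 3.15% and 6.41% of all genes were, and DESeq2 called 0. The lowest loading differences were −0.38 ± 0.26 for HSPB1 and −0.37 ± 0.21 for HSPA8 at 1 h, −0.35 ± 0.25 for HSPB1 at 4 h and −0.35 ± 0.18 for HSPD1 at 24 h.

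Among the partner lists at 24 h of tamoxifen, 4 of 13 HSP90 co-chaperones fell and none rose, including FKBP4 (−0.55 ± 0.12), SUGT1 (−0.49 ± 0.14) and PTGES3, the p23 protein (−0.44 ± 0.13). In the other lists 1 gene each fell among 8 TRiC subunits (CCT3, −0.40 ± 0.13), 5 prefoldin subunits (PFDN5, −0.56 ± 0.13) and 10 mitochondrial chaperones and proteases (GRPEL2, −0.67 ± 0.19), and among 17 HSP70 co-chaperones DNAJB6 rose (0.38 ± 0.12). In all genes 5.84% were called lower and 8.78% higher. The median was −0.35 for HSP90 co-chaperones and −0.29 for TRiC, against −0.01 for all genes. At 1 h and 4 h no gene of the lists passed, by edgeR.

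Over the 10 ER-Src cycloheximide libraries the members fell into patterns, described here by Pearson correlation of log2 CPM with no test, the libraries sharing their depth and scaling. HSPA8 was closest to HSP90AB1 (r = 0.95), and HSP90AB1 to HSPA4 (r = 0.96) and HSPA8, out of 3839 genes. HSPH1 was closest to WDR3 (r = 0.95), DNAJA1 (r = 0.91) and ASPM (r = 0.90), and HSP90AA1 to WDR3 (r = 0.90), XPO1 (r = 0.89) and HSPH1 (r = 0.89). HSPE1 was closest to HSPE1-MOB4 (r = 0.96), a read-through transcript that contains its sequence and can share its reads. HSPB1 had coefficients of −0.23 to 0.18 with the other 7 members, and DNAJB1 of −0.12 to 0.59.

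The cell models differed in the same direction for most members. Uninduced ER-Src cells against EH fibroblasts gave 7 of 8 members higher in footprints, where 55.3% of 12138 genes were called (30.4% higher and 24.9% lower). In RNA 6 were higher and 1 lower, where 48.1% of genes were called (23.3% higher and 24.9% lower). EH has a single RNA library, which the RNA and loading tests assume to vary like the replicated groups. The median of all genes was itself 0.11 in footprints with TMM scaling and 0.00 with the size factors of DESeq2, so 0.11 may be taken off each footprint difference below. Cell type, culture medium and library set cannot be told apart in this comparison.

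HSPE1 differed most, with 728, 799, 853 and 1093 CPM in uninduced ER-Src footprints and 217 and 171 CPM in EH. It was 4.47-fold higher (log2 difference 2.16 ± 0.16, edgeR adjusted p = 3.3e-11), and in RNA 3.14-fold, with 128 to 162 CPM in uninduced ER-Src and 46.3 CPM in EH. HSPH1 (2.31-fold) and HSPD1 (2.22-fold) followed in footprints, HSP90AA1 (1.62-fold), HSP90AB1 (1.58-fold), DNAJB1 (1.48-fold) and HSPA8 (1.41-fold) came after. DNAJB1 overlapped EH, and its call (edgeR adjusted p = 0.0362) was lost with the DESeq2 size factors (0.44, adjusted p = 0.103), without the ethanol 4 h library (0.38, adjusted p = 0.132) and without EH replicate 1 (0.69, adjusted p = 0.0767) or 2 (0.45, adjusted p = 0.223). That of HSPA8 was lost without EH replicate 2 (0.43, edgeR adjusted p = 0.0584). HSPB1 overlapped in footprints, with 488 to 658 CPM in uninduced ER-Src and 619 and 665 CPM in EH, but was lower in RNA, with 22.1 to 36.0 CPM in uninduced ER-Src and 53.6 CPM in EH (log2 difference −0.91 ± 0.21, edgeR adjusted p = 0.000891). The difference between footprints and RNA of HSPB1 was tested as ribosome loading and did not pass (0.73 ± 0.25, edgeR adjusted p = 0.161), nor did any member, where 1.13% of genes did (0.717% higher and 0.412% lower; of the calls 63.5% were higher with TMM and 33.6% with DESeq2 size factors). At unadjusted p under 0.05 there were 2 members, HSPB1 and HSP90AB1, where 12.9% of all genes were, and DESeq2 called 0.

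**Figure D4:**
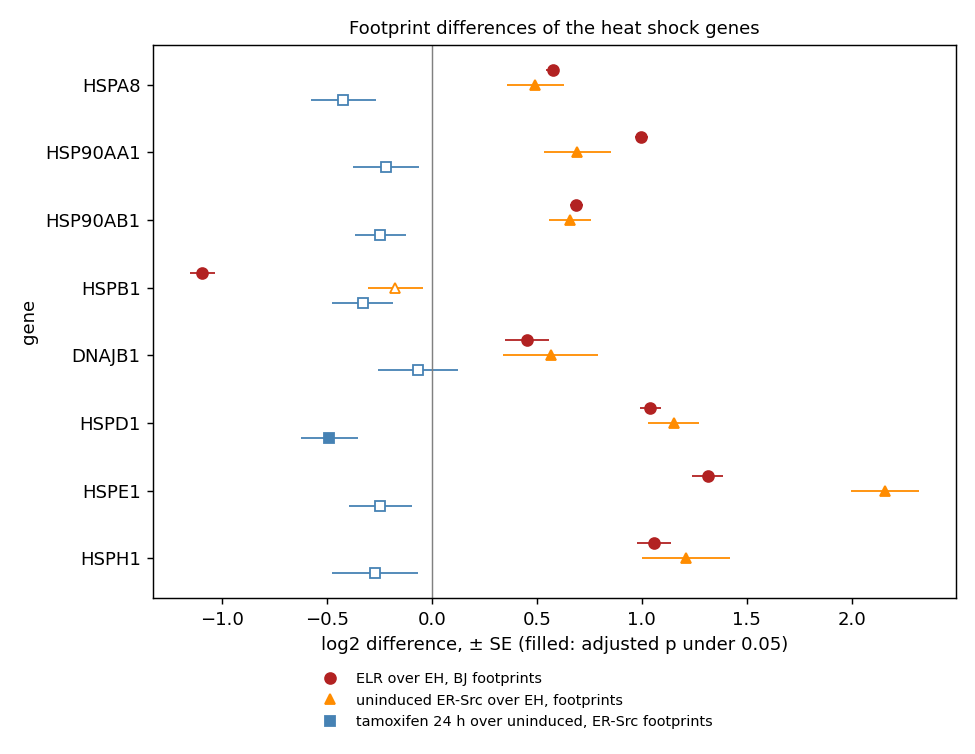
Points give the log2 difference in cycloheximide footprints with its SE on the horizontal axis, 1 row per gene, for ELR over EH (circles), uninduced ER-Src over EH (triangles) and tamoxifen 24 h over uninduced ER-Src (squares). Filled points passed at an adjusted p under 0.05. In ELR over EH 7 genes lie right of 0 and HSPB1 lies left of it, while the 8 squares lie between −0.49 and −0.07.

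Footprint and RNA libraries ranked the members differently, a comparison of library types on shares of the total and not of absolute amounts. In uninduced ER-Src cells all 8 members passed, where 68.4% of genes did, 3 of them higher in footprints (35.1%) and 5 lower (33.3%). In the BJ lines 7 of 8 passed, where 67.5% did, 3 higher (33.2%) and 4 lower (34.2%). HSPB1 had 488 to 658 CPM in footprints and 22.1 to 36.0 CPM in RNA of uninduced ER-Src cells, 19.9-fold higher in footprints (log2 difference 4.31 ± 0.13), and was 14.3-fold higher in the BJ lines. HSPE1 had 728 to 1093 CPM in footprints and 128 to 162 CPM in RNA, 5.98-fold higher, and was 5.11-fold higher in the BJ lines. These are the members with the shortest coding regions, 618 nt in HSPB1 and 309 nt in HSPE1. DNAJB1, next in length at 1023 nt, was 1.61-fold higher in footprints of uninduced ER-Src cells and 1.48-fold in the BJ lines.

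The longer members had smaller footprint than RNA shares. HSPA8 (1941 nt) was 2.32-fold lower in footprints than in RNA of uninduced ER-Src cells, HSP90AA1 (2199 nt) 2.11-fold, HSPH1 (2577 nt) 1.78-fold, HSP90AB1 (2175 nt) 1.66-fold and HSPD1 (1722 nt) 1.34-fold. In the BJ lines HSP90AA1 was 1.94-fold lower, HSPH1 1.64-fold, HSPA8 1.59-fold and HSP90AB1 1.19-fold, while HSPD1 did not pass (log2 difference 0.00 ± 0.09). The part of coding length, and of the separate library methods, in these values was not tested.

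Harringtonine set against cycloheximide divided the members in both models. HSPH1 and the 2 HSP90 genes had larger shares under harringtonine, and HSPE1, HSPB1, DNAJB1 and HSPD1 smaller ones. In the BJ lines all 8 passed, where 64.3% of 8363 genes did, 3 of them higher (29.9%) and 5 lower (34.3%). In ER-Src cells 7 of 8 passed, where 55.6% of 8992 did, 3 higher (26.9%) and 4 lower (28.7%). The ER-Src comparison used only the replicate 1 cycloheximide libraries, with 1 library per drug and time. The median of all genes was −0.15 in the BJ lines and −0.05 in ER-Src cells. The deposited values are counts per transcript, so a start peak was not looked at.

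Scaled together with the cycloheximide libraries, HSPH1 had 837 and 900.0 CPM under harringtonine and 318 and 306 CPM under cycloheximide in ELR, and 403 and 252 CPM under harringtonine and 154 and 147 CPM under cycloheximide in EH. The drugs did not overlap in a line, and the ratio was 2.62-fold over the 3 lines and 3.25-fold in ER-Src cells (log2 differences 1.39 ± 0.08 and 1.70 ± 0.16). The share of all genes without overlap between the drugs was not counted. HSP90AA1 had 9355 and 9048 CPM under harringtonine and 4319.8 and 4173 CPM under cycloheximide in ELR, and was 2.03-fold higher in the BJ lines and 1.59-fold in ER-Src cells. HSP90AB1 was 1.21-fold higher in the BJ lines and 1.73-fold in ER-Src cells, and its BJ difference of 0.27 ± 0.07 became 0.09 without a filter on low counts (edgeR adjusted p = 0.206).

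HSPE1 lay at the other end, with 95.4 and 120.3 CPM under harringtonine and 449 and 448 CPM under cycloheximide in ELR. It was 4.83-fold lower under harringtonine in the BJ lines and 4.37-fold lower in ER-Src cells. HSPB1 was 1.91-fold lower in the BJ lines and 4.15-fold lower in ER-Src cells, DNAJB1 2.91-fold and 1.80-fold, and HSPD1 2.18-fold and 1.29-fold. The difference between the models was not tested. HSPD1 in ER-Src cells (−0.36 ± 0.15, edgeR adjusted p = 0.0378) lost its call without any 1 of the 6 libraries at 0, 1 or 4 h (−0.35 to −0.41, adjusted p 0.0655 to 0.164). HSPA8 was 1.77-fold lower in the BJ lines and did not pass in ER-Src cells (−0.26 ± 0.14, edgeR adjusted p = 0.0945), but did without the 24 h cycloheximide library (−0.32, adjusted p = 0.000161) or the 24 h harringtonine library (−0.29, adjusted p = 0.00107, both edgeR).

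**Figure D5:**
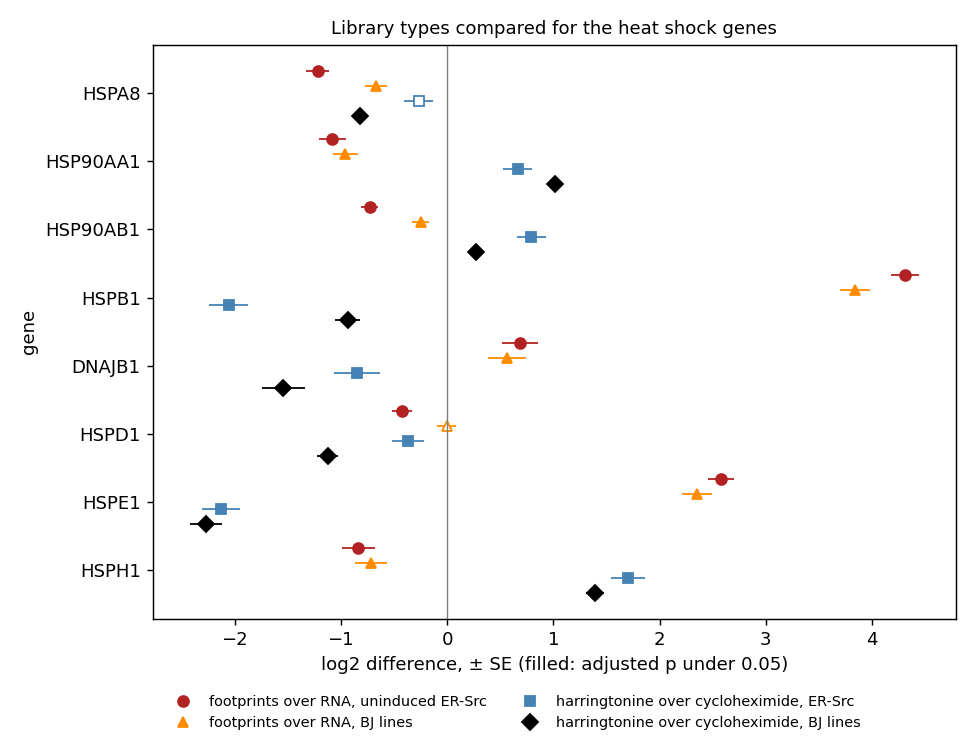
Points give log2 differences with their SE on the horizontal axis, 1 row per gene, for footprints over RNA in uninduced ER-Src cells (circles) and the BJ lines (triangles), and for harringtonine over cycloheximide in ER-Src cells (squares) and the BJ lines (diamonds). Filled points passed at an adjusted p under 0.05. HSPB1 and HSPE1 lie far right in footprints over RNA and left in harringtonine over cycloheximide, and HSPH1 and the HSP90 genes lie the other way round.

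Harringtonine libraries of ER-Src cells, 1 per time and scaled among themselves, allow no test over time. HSPH1 stood at 1157, 1137, 1132 and 571 CPM at 0, 1, 4 and 24 h of tamoxifen, HSP90AB1 at 5674, 5362, 4885 and 3447 CPM and HSP90AA1 at 5933, 5464, 5610.0 and 4084 CPM. All 3 were lowest at 24 h, but the share of all genes lowest at 24 h was not counted. The 24 h library held 374305 counts, against 163084 to 183035 at 0, 1 and 4 h. HSPA8, HSPB1, DNAJB1 and HSPD1 are not listed here. HSPE1 stood at 129, 203, 219 and 166 CPM, and was lowest at 0 h.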

How the data were processed

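Ribosome footprints and RNA were measured in 36 libraries. The deposited files hold raw counts per RefSeq transcript, which the authors made with TopHat on hg19, per the submitters' processing notes. The counting program, its use of strand and its handling of reads with several matches are not stated by the labels. From the 36499 transcript rows, the row with the highest mean count on a primary chromosome was kept for each of 19125 symbols, and 12 symbols had no such row. Counts were tested with edgeR 4.0.16 (R 4.3.3): TMM scaling, filterByExpr with a minimum count of 10 and a minimum total of 15, the quasi-likelihood test and Benjamini-Hochberg adjustment over all genes tested, with 0.05 as the threshold. Of the 21 comparisons, those within a model and library type used only its libraries. Loading, footprints against RNA and comparisons between models used the RNA and cycloheximide libraries of both models. Harringtonine against cycloheximide used both drugs of one model, with line (BJ) or time (ER-Src) in the fit. In ER-Src cells it took the 4 harringtonine and the matching replicate 1 cycloheximide libraries, 1 per drug and time. DESeq2 1.42.0, other size factors, no filter, another transcript, a replicate block, ethanol only as the uninduced group, other sets of libraries for the spread, and leaving out each library were tried.

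Named genes were all members, the 3 genes most like each of them among those above 50 CPM, and at most 3 called genes per partner list. The members and lists were chosen with earlier results of these data known. Single RNA libraries of the BJ lines were compared by ratio after adding 1 CPM, for genes reaching 10 CPM, with 1.5-fold as the limit named. Gene spans and coding sequences came from GRCh37 and promoters from RefSeq (GRCh38.p14). Intervals and floors cover counting error alone.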

Additional observations from a re-analysis of the deposited data

Results flagged for a closer look

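HSPA8 footprints in uninduced ER-Src cells had 1 library far from the other 3: ethanol at 4 h stood at 4548.47 CPM, against 3322 to 3490.2 CPM. Its gap to the next library was 0.863 of the whole range of the group. Of 16 groups examined this way, chance sets 1 in 20 apart. RNA of HSPA8 was also highest at ethanol 4 h, with 11013 CPM against 8213 to 9270.4 CPM in the other uninduced libraries.

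HSPA1A had counts on rows for alternative haplotypes of chromosome 6, which no comparison used. They reached 4 counts in ELR cycloheximide replicate 2, 8 and 4 counts in EL cycloheximide replicates 1 and 2, and 5 counts in EL RNA. These exceed the 3 counts that a zero allows. In all, 9 libraries held such counts, each of them from the BJ lines. The cause was not tested.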

How the results depend on the processing

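No member changed direction in a called result under any alternative run. Among results for single members, 811 values under other settings stayed on their side of the threshold, 13 lost and 3 gained a call, and leaving out 1 library kept 1045, lost 20 and gained 3. Counts of called members moved by over 1.5 times in these cases: BJ loading gave 2 with the libraries of one model, and BJ harringtonine ELR over EH gave 3 with DESeq2. Leaving out 1 library gave 0 to 2 members for tamoxifen 24 h footprints, 5 to 6 for BJ harringtonine, 5 to 7 for uninduced ER-Src over EH footprints and 6 to 8 for harringtonine over cycloheximide in ER-Src cells. With the replicate block the member counts stayed at 0, 0 and 1 for tamoxifen at 1, 4 and 24 h, at 6, 8 and 8 for EL over EH, ELR over EL and ELR over EH, and at 6 for BJ harringtonine, so the block changed none of these counts. Samples were not treated as paired, since the labels tie a number to no shared batch. The correlation of replicate differences between groups was 0.147 to 0.265 in 5 of 6 ER-Src cycloheximide pairs and 0.0386 between 1 and 24 h of tamoxifen, so a replicate effect shared by part of these libraries may exist. It was −0.00446 to 0.0345 in BJ cycloheximide and −0.0153 to 0.0241 in BJ harringtonine libraries.

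Over all genes, calls were 4146 in EL over EH, against 2462 with DESeq2 and 2607 with the spread shared across models. In ELR over EL they were 3612, against 1824 and 1778. They were 1093 for BJ harringtonine against 492 with DESeq2, 687 for RNA at 24 h against 446, and 61 for BJ loading against 119 without a filter and 833 with one model. Footprints at 4 h gave 87, against 172 without a filter and 56 with ethanol only, and uninduced loading 137 against 234 without a filter. DESeq2 size factors moved the share of higher calls to 33.6%, against 63.5%, in uninduced loading and to 52.8%, against 68.9%, in BJ loading. At 1 h, footprints gave 2 calls, against 8 with DESeq2, 22 without a filter and 4 with the replicate block, and RNA 1 against 4 with DESeq2 and 6 without a filter. RNA at 4 h gave 18 against 35 without a filter, loading at 4 h 0 against 1 without a filter, and loading at 24 h 75 against 49 with one model. Leaving out 1 library gave 0 to 6 calls for footprints and 0 to 12 for RNA at 1 h, 14 to 26 for BJ loading (without each of its 4 footprint libraries) and 32 to 177 for uninduced loading. The last gave 32 and 34 without an EH footprint library, 86 without ethanol 4 h footprints and 89 without ethanol 1 h RNA. Harringtonine depth limits DNAJB1 and HSPE1 most.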
